A study of Mus musculus with 12 samples.

Results

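Matrix metalloproteases (MMPs), ADAMs, ADAMTS proteases and their inhibitors, the TIMPs, were followed in mouse lung tumors given radiation, a TGF-beta-neutralizing antibody, or both. Every gene was taken whose only symbol in the array's probe table was Mmp, Adam or Adamts with a number, or Timp1 to Timp4. This gave 65 of the 18193 genes with such a symbol, on 116 probe sets: 18 Mmp, 28 Adam, 15 Adamts and 4 Timp genes. Where a gene had several probe sets, as 30 of the 65 did, the one with the highest mean log2 intensity stands for it. Of the 65 genes, 38 passed the filter on low values and were tested (13 Mmp, 11 Adam, 11 Adamts and 3 Timp), and 27 had a mean log2 intensity below 5.37 and were not.

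MMPs, ADAMs and ADAMTS proteins are zinc-dependent proteases. Secreted and membrane-type MMPs cut collagens, elastin, proteoglycans and other proteases, membrane-bound ADAMs release growth factors, cytokines and adhesion molecules from the cell surface, and ADAMTS proteases act on matrix proteoglycans and procollagens. TIMPs bind the active site of these enzymes, and in tumors the proteases come from carcinoma cells, fibroblasts, endothelial cells, macrophages and neutrophils alike.

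The samples were 12 whole tumors, each on 1 Affymetrix array. They grew from LLC (Lewis lung carcinoma) cells, an established mouse line, under the skin of female C57BL/6 mice of 6 to 8 weeks, a strain that accepts this line with its immune system intact. Treatment groups were formed at a tumor volume of 60 to 80 mm3, and tumors were collected on day 19. The title of the series ties TGF-beta to the resistance of lung cancer to radiotherapy. There were 4 groups of 3 tumors. The control group received 13C4, the control antibody, without radiation, and the 1D11 group received 1D11, which neutralizes TGF-beta, without radiation. The radiation group received 13C4 with radiation, and the 1D11_radiation group received 1D11 with radiation. No group went without an antibody. The sample characteristics give 5 fractions of 6 Gy, whereas the sample descriptions give 2 Gy. The labels do not say that tumors of a group came from separate mice, so p-values measure the spread between these samples, which may be technical in part.

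Deposited intensities ran from 7.4 to 30800, with array medians between 62.3 and 66.1. With 3 arrays a group, their number limits the precision. Krt8 and Krt18, keratins of carcinoma cells, had mean log2 intensities of 12.16 and 12.1 and Epcam 7.17, whereas the epithelial cadherin gene Cdh1, at 4.85, lay below the filter. Some tumors stood at the ends for many of the proteases. Control replicate 2 was the highest of the 12 tumors for 10 of the 38 tested genes and the lowest for 4. 1D11_radiation replicate 2 was the highest for 8. Control replicate 1 was the lowest for 11 and the highest for 3. It also had the second highest skeletal muscle signal: the mean of 9 muscle genes, each centred over the 12 tumors, was 1.43 in control replicate 1, 2.13 in radiation replicate 3 and between -1.66 and 0.78 in the others. Results that rest on control replicate 1 are given with and without it.

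Of the 18 Mmp genes, 9 lie in 1 cluster on chromosome 9, which holds 13 annotated genes. The 9 follow in the order Mmp13, Mmp12, Mmp1b, Mmp3, Mmp1a, Mmp10, Mmp8, Mmp20 and Mmp7. Mmp27, between Mmp8 and Mmp20, is not analysed here, and the other 3 genes of the cluster are long non-coding RNAs and a pseudogene. Mmp13 encodes collagenase 3, Mmp12 macrophage elastase, Mmp3 and Mmp10 stromelysins 1 and 2, and Mmp8 the neutrophil collagenase. Mmp1a and Mmp1b are related to the interstitial collagenase gene, and whether their probe sets share signal was not tested. The 120 bases before the transcription start of 7 of these genes are printed. Of the 7, 4 tested genes moved together across tumors and Mmp8 did not, and a link to the sequences was not tested. The stretch of Adam8 is shown beside them because Adam8 had the smallest p-value of the family. Sequences are from RefSeq on GRCm38.p6, 5′ to 3′ on the strand of the gene, and capitals mark matches to TGANTCA, the binding motif of the AP-1 transcription factors.
Mmp13, chr9:7272394-7272513, plus strand: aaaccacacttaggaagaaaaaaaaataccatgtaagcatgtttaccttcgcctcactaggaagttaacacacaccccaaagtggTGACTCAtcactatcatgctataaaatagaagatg
Mmp12, second listed start, chr9:7347254-7347373, plus strand: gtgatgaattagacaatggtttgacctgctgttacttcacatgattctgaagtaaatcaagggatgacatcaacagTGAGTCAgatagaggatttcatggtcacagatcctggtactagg
Mmp1b, chr9:7388027-7388146, minus strand: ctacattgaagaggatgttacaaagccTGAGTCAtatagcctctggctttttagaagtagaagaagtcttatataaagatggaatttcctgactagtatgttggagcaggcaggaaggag
Mmp3, chr9:7445702-7445821, plus strand: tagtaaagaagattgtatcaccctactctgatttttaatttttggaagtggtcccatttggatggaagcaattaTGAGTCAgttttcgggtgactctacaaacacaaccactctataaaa
Mmp1a, chr9:7464021-7464140, plus strand: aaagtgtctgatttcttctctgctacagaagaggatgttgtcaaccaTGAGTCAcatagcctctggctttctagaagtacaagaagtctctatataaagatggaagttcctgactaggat
Mmp10, chr9:7502222-7502341, plus strand: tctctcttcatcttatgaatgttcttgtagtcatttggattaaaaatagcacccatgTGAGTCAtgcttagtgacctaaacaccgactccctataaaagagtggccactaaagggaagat
Mmp8, chr9:7558309-7558428, plus strand: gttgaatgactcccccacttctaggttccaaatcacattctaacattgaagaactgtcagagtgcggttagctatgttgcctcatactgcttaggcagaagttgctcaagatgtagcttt
Adam8, chr7:139992563-139992682, minus strand: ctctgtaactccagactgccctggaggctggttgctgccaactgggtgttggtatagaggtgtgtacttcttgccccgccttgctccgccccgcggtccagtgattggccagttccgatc

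In the 250 bases before the start, searched on both strands, TGANTCA was found in 8 of the 9 cluster genes, all but Mmp8. It began 35 bases before the start in Mmp13, 46 in Mmp3, 63 in Mmp10 and 44 before the second listed start of Mmp12. The first listed start of Mmp12 has no match. Mmp7 and Mmp20, which hold the motif, were below the filter on low values. They ranged over 0.48 and 0.53 on the log2 scale across the 12 tumors. Both were highest in control replicate 1, where Mmp3, Mmp10, Mmp12 and Mmp13 were lowest. Of the 37 family members with a promoter entry, 10 held the motif (27.0%), against 6.75% of all 32851 promoters of the table and 7.82% of its 27025 genes. The other 2 members with a match were Adam19 and Adam25. AGGAAG, the PEA3 motif of ETS factors, was found in 16 of the 37 (43.2%), Mmp14 and Timp1 among them, against 32.3% of the genes and 29.5% of the promoters in the table. Adam8 had neither motif in its 250 bases. The motifs do not overlap each other, and a match is a description of letters, not a site shown to be bound.

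**Figure D1:**
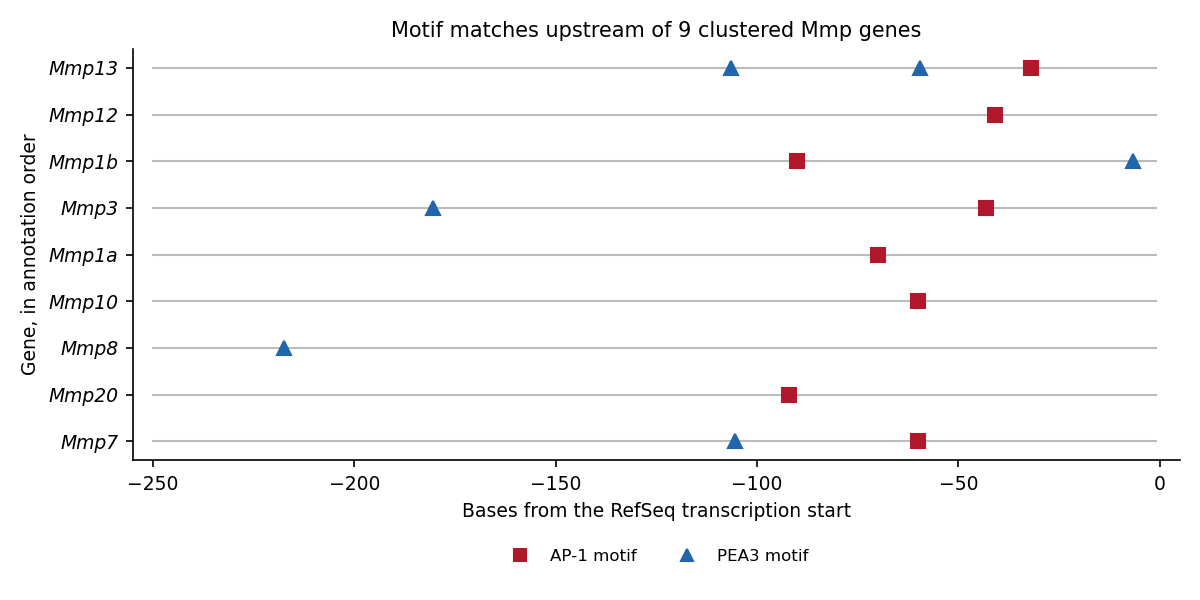
Position of AP-1 (squares) and PEA3 (triangles) motif matches in the 250 bases before the RefSeq transcription start, in bases, for 9 Mmp genes of the chromosome 9 cluster. For genes with several listed starts the one with an AP-1 match is drawn. All but Mmp8 have an AP-1 match, and each lies within the last 100 bases.

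The 4 cluster genes Mmp3, Mmp10, Mmp12 and Mmp13 varied widely between tumors of a group, and they varied together. Their residual SDs were 1.16, 1.05, 1.34 and 1.11 on the log2 scale, at or above percentile 99.8 of the tested genes. Without control replicate 1 they were 0.36, 0.60, 0.78 and 0.63, at percentiles 97.1, 99.1, 99.7 and 99.2 of that fit, so much of the spread of Mmp3 came from that tumor. Log2 intensities of Mmp3 were 9.41, 13.63 and 12.86 in control replicates 1 to 3, 11.62, 11.55 and 12.27 in 1D11 tumors, 12.90, 12.62 and 12.69 in radiation tumors, and 13.39, 13.28 and 12.77 in 1D11_radiation tumors. Control replicate 1 was thus far below every other tumor, and the 1D11 tumors came next. The irradiated tumors were higher, but control replicate 3 lay within their range and control replicate 2 was the highest of all tumors. Mmp12 followed the same order, with 7.14, 12 and 10.09 in control, 8.10, 8.51 and 9.76 in 1D11, 10.65, 9.96 and 10.26 in radiation, and 11.38, 11.08 and 10.20 in 1D11_radiation tumors. For Mmp13 the values were 5.11, 8.61 and 8.08 in control, 7.12, 6.54 and 7.73 in 1D11, 9.07, 8.53 and 7.17 in radiation, and 8.78, 8.74 and 8.52 in 1D11_radiation tumors. Mmp10 had 5.57, 9.17 and 8.12 in control, 6.50, 6.55 and 7.59 in 1D11, 8.07, 7.92 and 7.38 in radiation, and 8.40, 8.08 and 7.06 in 1D11_radiation tumors. Control replicate 1 was the lowest tumor for each of the 4 genes.

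Compared with the mean of the other control tumors, control replicate 1 was 15-fold lower in Mmp12, 14.3-fold in Mmp3, 9.4-fold in Mmp13 and 8.4-fold in Mmp10. Mmp1a, which was not tested because its mean fell just short of the filter, was 7.26-fold lower there. Mmp8, inside the same stretch of the chromosome, was 1.1-fold lower. Mmp9, the gelatinase B gene, which lies elsewhere in the genome, went the other way: it was 16-fold higher in control replicate 1, at 11.14, than in the other control tumors, at 7.12 and 7.17. The other 3 groups ranged from 7.72 to 9.76 for Mmp9. Control replicate 1 also differed in genes outside the family, such as Ctsk, at 11.93 against 6.90 and 7.40 in the other control tumors. The part of the muscle signal, or of other differences of this tumor, in its Mmp values was not tested.

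Over the 12 tumors the 6 pairs among Mmp3, Mmp10, Mmp12 and Mmp13 had Pearson correlations from 0.86 to 0.95 and Spearman correlations from 0.8 to 0.97. Then the 2 tumors farthest from the median of 1 gene of the pair were left out, not the same tumors for every pair. Pearson correlations were then 0.65 to 0.98. They were 0.75 to 0.98 without control replicate 1, and 0.85 to 0.97 after group means were removed. For comparison, 1 of the other 697 pairs of tested family members, Adamts15 with Timp2, had a correlation over 0.8. So did 0.894% of the pairs of these 4 genes with tested genes outside the family. Mmp8 had correlations of 0.1 to 0.23 with the 4. Mmp1a and Mmp1b, both below the filter, had 0.73 to 0.93 and 0.59 to 0.76. The 4 genes were picked after their values were seen and share the same arrays, so these correlations are descriptions and carry no p-value.

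**Figure D2:**
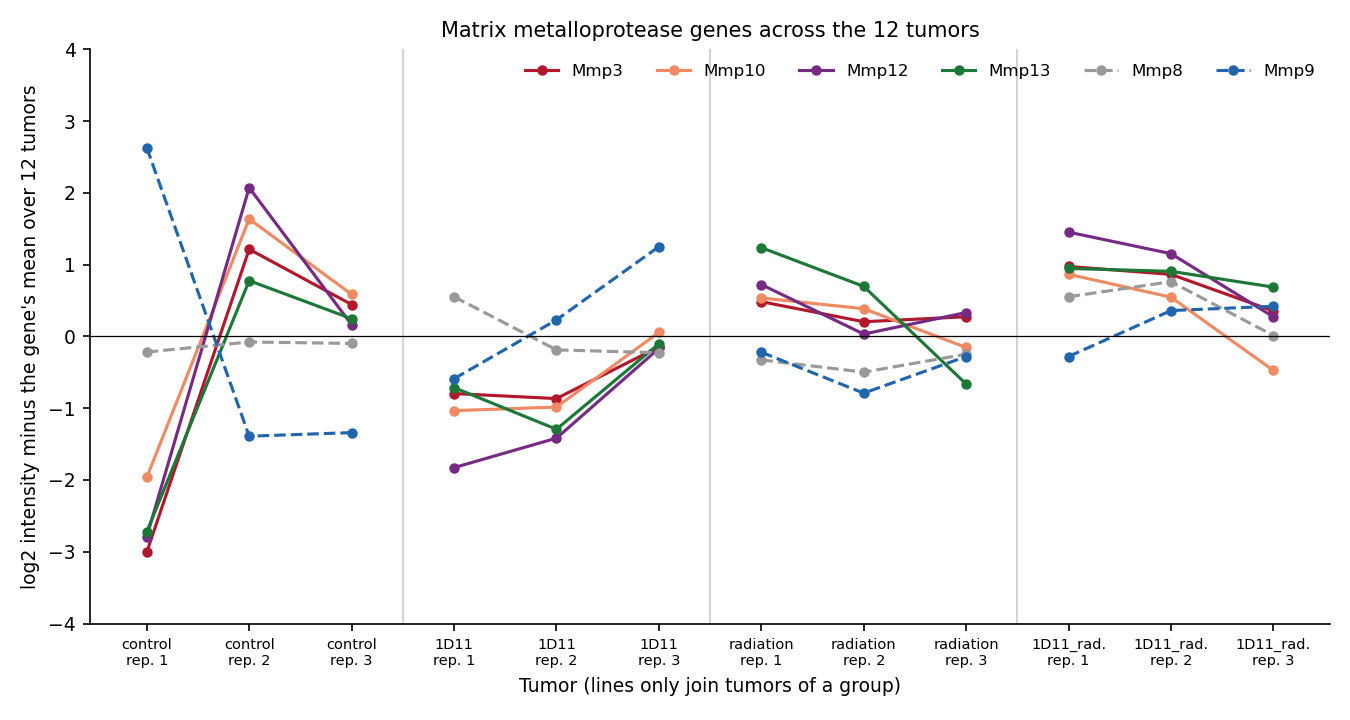
Log2 intensity minus the gene's mean over the 12 tumors (vertical axis) for 6 Mmp genes in each tumor (horizontal axis). Mmp3, Mmp10, Mmp12 and Mmp13 (solid lines) run together and are lowest in control replicate 1, where Mmp9 (dashed) is highest. Mmp8 (dashed) stays near its mean there.

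Radiation was compared with no radiation under each antibody and over both, the latter with 6 against 6 tumors, as limma contrasts of 1 model over all 12 arrays. Genes with an adjusted p (Benjamini-Hochberg, over all 12735 genes tested) under 0.05 are said to be called. Under 13C4, 2 of the 38 members were called, both higher (Adam8 and Timp1), or 5.26%, against 2.39% of all genes. Under 1D11, 1 was called (Adam8), against 0.0785% of all genes. Over both antibodies 4 were called, Adam8 higher and Adamts1, Adamts9 and Mmp14 lower, or 10.5%, against 7.26% of all genes. With so few calls, nothing is read from these shares about the family as a whole. In 1D11_radiation against control, Adam8 alone was called, against 2.35% of all genes. The median log2 change of the 38 members was -0.08 under 13C4 and -0.011 under 1D11, beside -0.002 and -0.026 over all genes. The comparisons under 13C4 and under 1D11 share no tumor: 28 of the 38 members had the same sign in both (73.7%, 11 higher and 17 lower), against 63.2% of all genes. Without control replicate 1 the members' count fell to 21 of 38 (55.3%, 6 higher and 15 lower), against 58.7% of all genes, so the larger share in the family rests on that tumor.

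**Figure D3:**
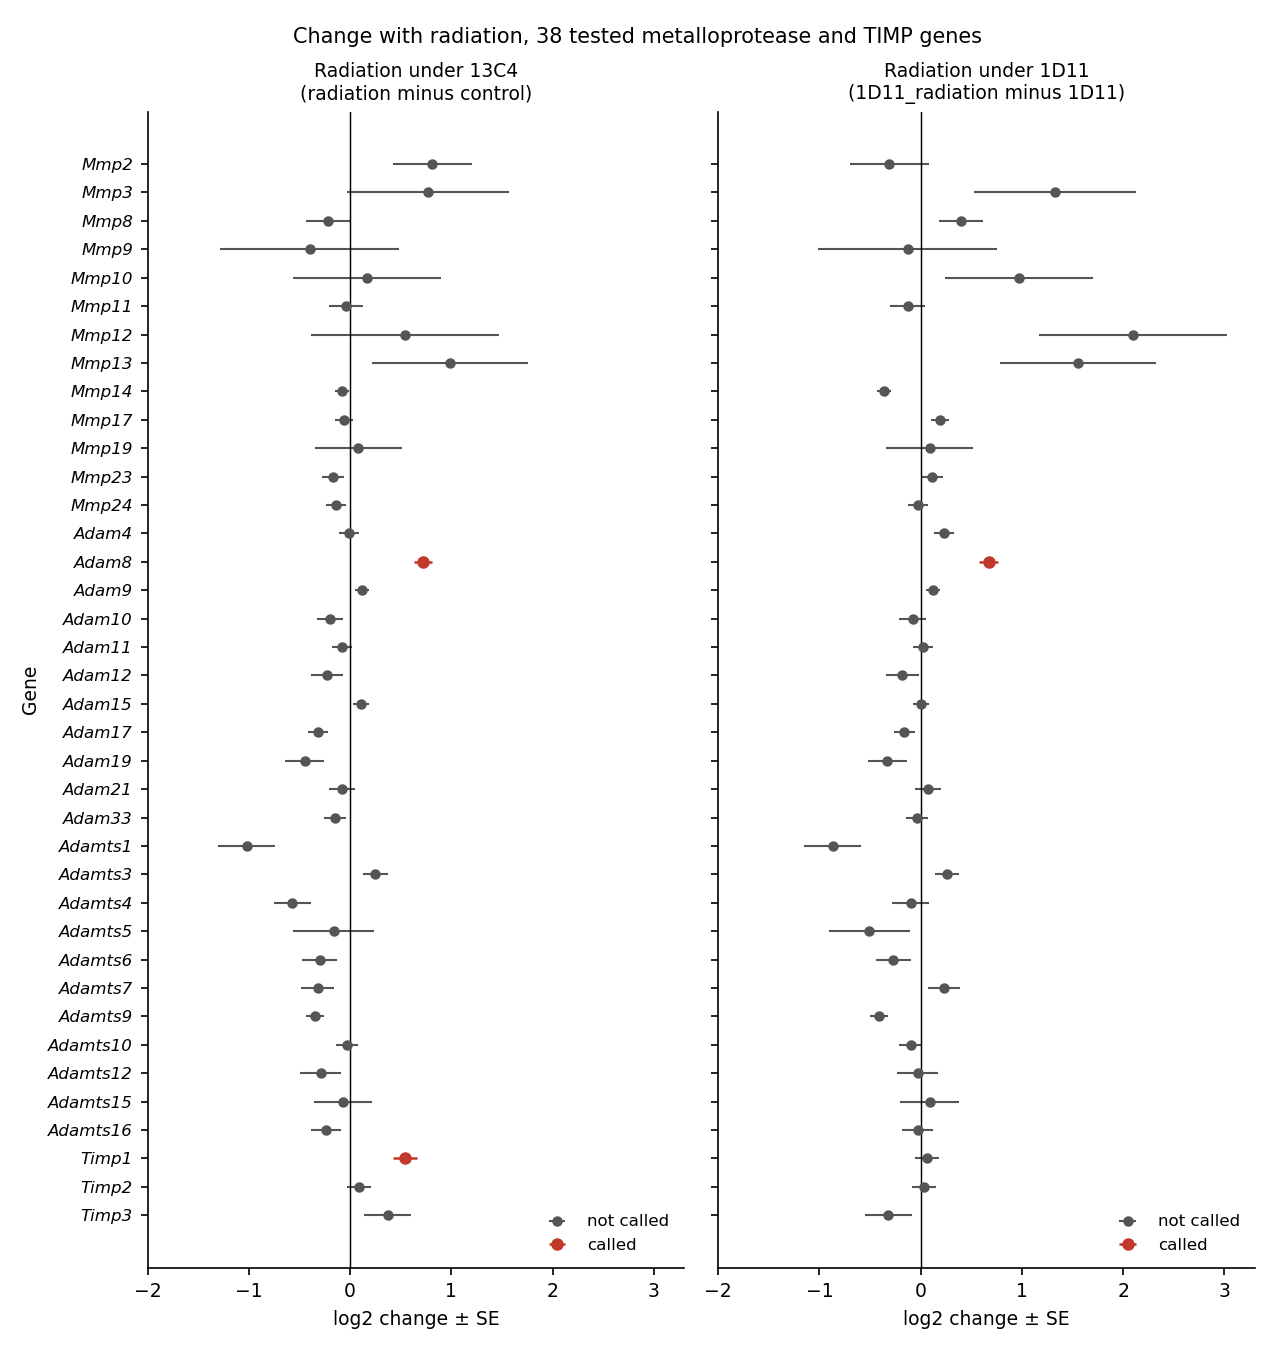
Log2 change with radiation and its standard error (horizontal axis) for the 38 tested genes (rows), under 13C4 on the left and under 1D11 on the right, 3 against 3 tumors each. Red points were called. Adam8 is the gene called on both sides, at 0.72 and 0.67, and Mmp12, Mmp9, Mmp3, Mmp13 and Mmp10 have the widest errors.

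Among the ADAMs that shed cell-surface proteins, Adam8 rose with radiation under both antibodies. ADAM8 is known from leukocytes and from carcinoma cells, where it cleaves adhesion molecules and other surface proteins. Its log2 intensities were 9.90, 10.08 and 9.86 in control tumors, 9.91, 9.83 and 9.96 in 1D11 tumors, 10.85, 10.51 and 10.65 in radiation tumors, and 10.60, 10.60 and 10.49 in 1D11_radiation tumors. Every irradiated tumor was above every tumor that was not irradiated, and both antibodies overlapped within a radiation state. Such separation of irradiated from other tumors in either direction, here and below, held for 7.89% of the members and 4.36% of all genes. The log2 change was 0.72 ± 0.09 (SE; n = 3 and 3) under 13C4, a 1.65-fold rise, with a limma adjusted p of 0.00806, which was 0.0821 when only these groups were fitted. It was 0.67 ± 0.09 under 1D11, with a limma adjusted p of 0.0364, and 0.0817 with a replicate block. The difference between these changes was -0.06 ± 0.13, with a 95% interval from -0.34 to 0.23 (limma adjusted p = 0.945).

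Over both antibodies the log2 change of Adam8 was 0.70 ± 0.07 (limma adjusted p = 0.00121), and it was called whichever 1 of the 12 tumors was left out. Under 1D11 alone the call was lost without any 1 of the 6 tumors with that antibody, with limma adjusted p up to 0.118. In the comparison of 1D11_radiation with control the change was 0.62 ± 0.09 (limma adjusted p = 0.0151), which rose to 0.0501 without 1D11_radiation replicate 3. The 3 genes outside the family whose intensities were most like Adam8 across the 12 tumors, by Pearson correlation, were Gnb1 at 0.962, Abcc1 at 0.95 and Ndufc2 at 0.947.

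Markers of other cell types moved with the same contrast. In whole tumors, fewer cells of a type and less RNA per cell cannot be told apart. Summed intensities, here and below, are over all listed markers on the array, also those not tested. These were 8 neutrophil, 6 carcinoma cell, 10 endothelial and 7 pericyte and smooth muscle genes. Of 8 T and NK cell markers, 6 were higher with radiation over both antibodies, 3 of them called, and their summed intensity was 512 to 623 in control, 593 to 739 in 1D11, 885 to 965 in radiation and 718 to 999 in 1D11_radiation tumors. Of 7 tested neutrophil markers, 6 were higher and none was called by limma, with sums of 2330 to 3850, 2070 to 8970, 2280 to 5200 and 5900 to 7300 in the same order of groups. All 4 tested carcinoma cell markers were higher, 1 of them called, with sums of 7800 to 8880, 6810 to 10800, 10200 to 10700 and 9180 to 11600. Their part in the rise of Adam8 was not tested.

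None of the other 7 tested sheddases was called by limma. Adam17, the enzyme that releases TNF and several EGF receptor ligands, had a log2 change of -0.24 ± 0.07 with radiation over both antibodies (limma adjusted p = 0.0606). Its 3 probe sets gave -0.22, -0.24 and -0.24. Its values were 11.06 to 11.40 in control, 11.05 to 11.22 in 1D11, 10.77 to 11.07 in radiation and 10.97 to 11 in 1D11_radiation tumors, so 1D11_radiation tumors were below all tumors without radiation, whereas radiation tumors overlapped them. Adam10, the main sheddase of Notch receptors, had -0.14 ± 0.09 (limma adjusted p = 0.382), and control replicate 1 was its lowest tumor. Adam9 had 0.12 ± 0.05 (limma adjusted p = 0.182). Adam11, which lacks an active catalytic site and is best known from brain, had -0.03 ± 0.07, and Adam4 had 0.11 ± 0.07. Of the 8 tested sheddases 1 was called higher, none lower by limma, and their median change was -0.12.

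Adamts1 and Adamts9, which cleave the proteoglycans versican and aggrecan, fell with radiation over both antibodies. Adamts1 had log2 intensities of 10.89, 10.40 and 10.80 in control, 10.98, 10.81 and 10.28 in 1D11, 9.33, 9.52 and 10.19 in radiation, and 10.01, 10.18 and 9.27 in 1D11_radiation tumors. All 6 irradiated tumors lay below all 6 others, with radiation replicate 3 (10.19) and 1D11_radiation replicate 2 (10.18) close to 1D11 replicate 3 (10.28). The log2 change was -0.94 ± 0.20, or 0.521-fold (limma adjusted p = 0.0195). It was -1.02 ± 0.28 under 13C4 (limma adjusted p = 0.0818) and -0.87 ± 0.28 under 1D11 (limma adjusted p = 0.178). Without 1D11 replicate 2 or radiation replicate 1 the limma adjusted p over both antibodies was 0.0515 and 0.0528.

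Adamts9 had log2 intensities of 7.75, 7.75 and 7.78 in control, 8.21, 7.88 and 7.96 in 1D11, 7.47, 7.34 and 7.42 in radiation, and 7.48, 7.62 and 7.73 in 1D11_radiation tumors. Irradiated tumors were again below all others, though 1D11_radiation replicate 3 came close to the control tumors. The log2 change was -0.38 ± 0.07 (limma adjusted p = 0.00921), called in each of 12 fits that left out 1 tumor. It rests on 1 of 3 probe sets: the other probe sets had 0.16 ± 0.15 and 0.08 ± 0.09, and the mean of the 3 gave -0.05 (limma adjusted p = 0.71). Of the 5 tested proteoglycan-cleaving ADAMTS genes 2 were called lower and none higher by limma, with a median of -0.34. Over all genes 3.87% were called lower in this contrast and 3.39% higher.

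Adamts4, an aggrecanase, had -0.57 ± 0.18 under 13C4 (limma adjusted p = 0.11) and -0.10 ± 0.18 under 1D11. Adamts3, a procollagen N-proteinase, had 0.26 ± 0.08 over both antibodies (limma adjusted p = 0.0834), and Adamts6 had -0.28 ± 0.12 (limma adjusted p = 0.17). All 5 tested members of the remaining ADAMTS group had negative values, from -0.28 to -0.05, and none was called by limma.

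Markers of endothelial cells, fibroblasts and pericytes were among the genes called lower in the same contrast. Of 9 tested endothelial markers none was higher and 3 were called lower, with a median change of -0.35 and summed intensities of 2070 to 2800 in control, 2020 to 2430 in 1D11, 1870 to 1940 in radiation and 1990 to 2090 in 1D11_radiation tumors. Of 10 fibroblast markers none was higher and 2 were called lower, with a median of -0.25 and sums of 44700 to 55200, 46800 to 50100, 32000 to 51000 and 31900 to 49900. Of 5 tested pericyte and smooth muscle markers 1 was higher and 2 were called lower, with a median of -0.2 and sums of 2680 to 4980, 2770 to 3130, 2480 to 2770 and 2320 to 2520. Their part in the falls of Adamts1, Adamts9 and Mmp14 was not tested.

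Mmp14 encodes the membrane-type collagenase that activates proMMP2 together with TIMP2. Its log2 intensities were 12.15, 12.37 and 12.24 in control, 12.56, 12.51 and 12.55 in 1D11, 12.18, 12.12 and 12.22 in radiation, and 12.16, 12.26 and 12.11 in 1D11_radiation tumors. The 1D11 tumors were above the 9 others, which overlapped one another. Over both antibodies the log2 change with radiation was -0.22 ± 0.05 (limma adjusted p = 0.0238), and its 3 probe sets gave -0.22, -0.21 and -0.28. The call was lost in 7 of 12 fits that left out 1 tumor, with limma adjusted p up to 0.0697: any 1D11 tumor, radiation replicates 1 and 2, and 1D11_radiation replicates 1 and 3. Under 13C4 the change was -0.08 ± 0.07 (limma adjusted p = 0.575) and under 1D11 it was -0.36 ± 0.07 (limma adjusted p = 0.063).

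The change of Mmp14 with 1D11 in tumors without radiation was 0.28 ± 0.07 (limma adjusted p = 0.159), and the interaction, the change with radiation under 1D11 minus that under 13C4, was -0.28 ± 0.10 (limma adjusted p = 0.55). Mast cell markers had a like order of groups: the sum of 6 was 662 to 1460 in control, 2260 to 2460 in 1D11, 843 to 1110 in radiation and 516 to 937 in 1D11_radiation tumors. The sum of keratinocyte markers ran from 515 to 3430 in 1D11 tumors and from 505 to 579 in control tumors. In 1D11 replicate 2 the centred mean of the tested keratinocyte markers was -0.36, within the control range of -0.38 to -0.14. The part of mast cell and keratinocyte markers in the Mmp14 values was not tested.

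Timp1, a secreted inhibitor of most MMPs, rose with radiation under 13C4. Its log2 intensities were 10.17, 10.52 and 10.36 in control, 10.61, 10.39 and 10.53 in 1D11, 11.13, 10.82 and 10.71 in radiation, and 10.67, 10.60 and 10.43 in 1D11_radiation tumors. The radiation tumors were above all others, whereas the 1D11 and 1D11_radiation tumors overlapped. The log2 change was 0.54 ± 0.12 under 13C4, or 1.45-fold (limma adjusted p = 0.0498), and 0.06 ± 0.12 under 1D11 (limma adjusted p = 0.878). The difference between these changes was -0.48 ± 0.18 (95% interval -0.86 to -0.09, limma adjusted p = 0.58), so it did not pass the test over all genes. The call under 13C4 was kept in 1 of 12 fits that left out 1 tumor, that without radiation replicate 3, and the limma adjusted p in the 12 ran from 0.0371 to 0.156.

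Other cell type markers moved in the same contrast. Under 13C4, 6 of 8 T and NK cell markers were higher with radiation (3 called) and 10 of 11 macrophage and monocyte markers (2 called), while 4 of 9 endothelial, 2 of 10 fibroblast and 3 of 5 pericyte and smooth muscle markers were called lower. The macrophage and monocyte sum was 27500 to 34900 in control, 30700 to 41100 in 1D11, 32100 to 35500 in radiation and 26800 to 37000 in 1D11_radiation tumors. Their part in the rise of Timp1 was not tested.

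The other inhibitors were not called by limma in any contrast. Timp2, which takes part in the activation of MMP2, had 0.09 ± 0.12 under 13C4 and 0.03 ± 0.12 under 1D11. Timp3, the inhibitor held in the matrix that also blocks ADAM17 and aggrecanases, had 0.37 ± 0.23 and -0.32 ± 0.23. Timp3 values ran from 6.34 to 6.84 in radiation tumors, and 1D11_radiation tumors had 5.76, 6.64 and 5.82, so replicate 2 lay within the range of the radiation group and the other two below it. Timp4 had 5.14 to 5.45 over the 12 tumors and was not tested.

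**Figure D4:**
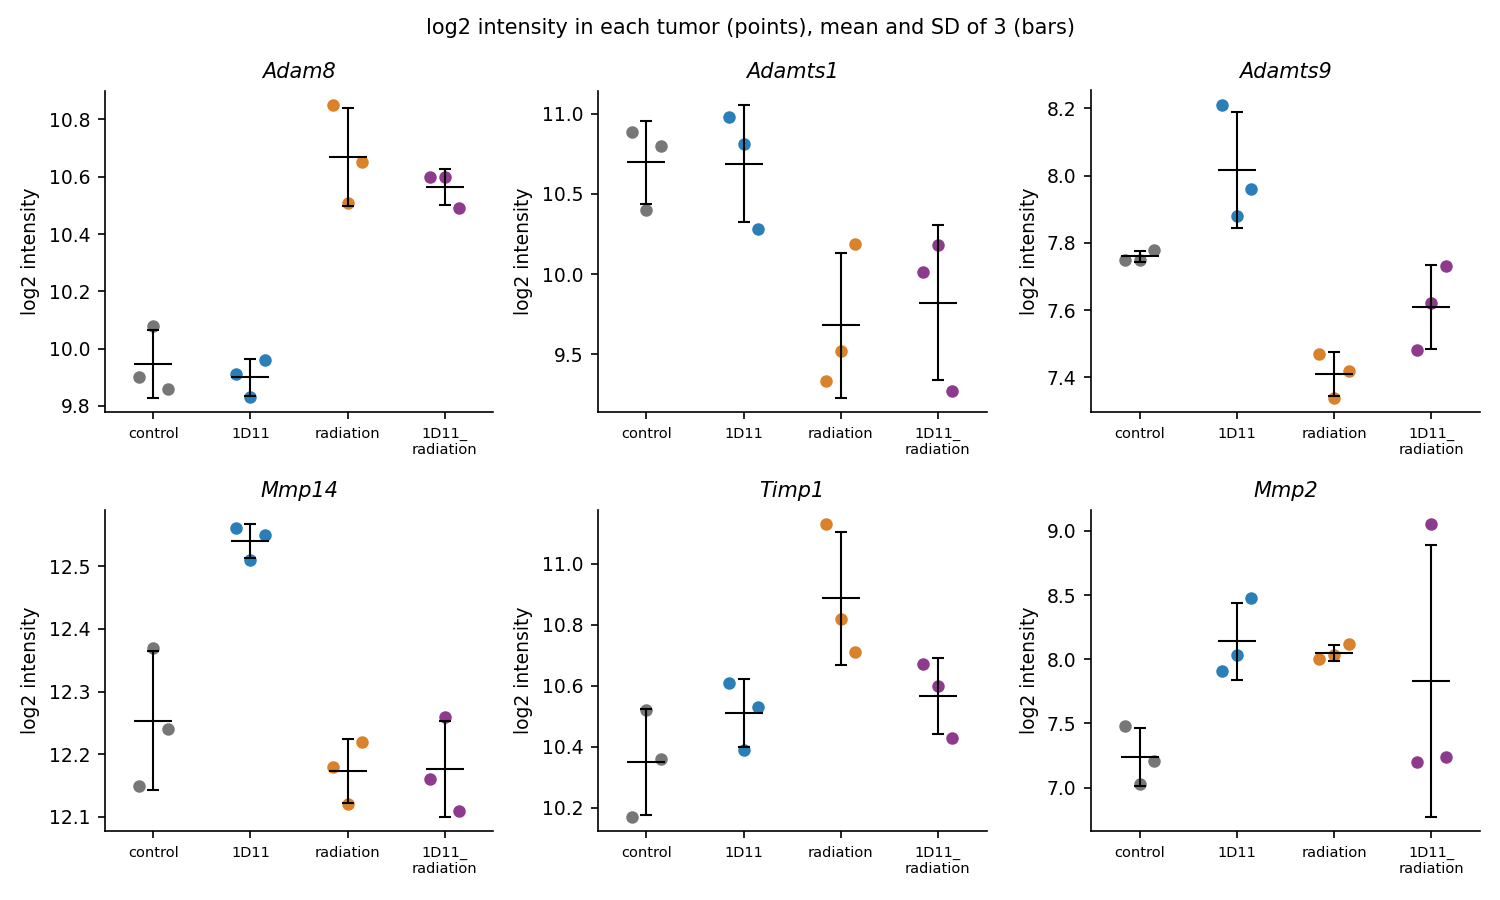
Log2 intensity (vertical axis) of 6 genes in each tumor (points) by group (horizontal axis), with the mean and SD of 3 tumors. Adam8 is higher and Adamts1 and Adamts9 are lower in every irradiated tumor, Mmp14 is highest in the 1D11 group and Timp1 in the radiation group. The vertical axes do not start at 0.

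Among the collagenases, stromelysins and gelatinases none was called by limma, and errors were wide for Mmp3, Mmp9, Mmp10, Mmp12 and Mmp13. Mmp12 had 0.54 ± 0.93 under 13C4 and 2.10 ± 0.93 under 1D11 (limma adjusted p = 0.312), and Mmp13 had 0.99 ± 0.77 and 1.55 ± 0.77 (limma adjusted p = 0.363 under 1D11). Mmp3 had 0.77 ± 0.80 and 1.33 ± 0.80 (limma adjusted p = 0.458 under 1D11), and Mmp10 had 0.17 ± 0.73 and 0.97 ± 0.73. Over both antibodies Mmp13 had 1.27 ± 0.54 (limma adjusted p = 0.178) and was called in 0 of 12 fits that left out 1 tumor. With array weights Mmp13 was called over both antibodies (limma adjusted p = 0.0466) and under 1D11 (limma adjusted p = 0.0447). Under 1D11 all 3 irradiated tumors were above all 3 others for Mmp3, Mmp12 and Mmp13, but not for Mmp10. Non-overlap of these groups in either direction held for 15 of the 38 members (39.5%, 8 higher and 7 lower) and for 26.1% of all genes, beside 0.0785% called.

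Without control replicate 1 the changes under 13C4 turned negative, to -0.51 for Mmp3, -0.86 for Mmp10, -0.76 for Mmp12 and -0.09 for Mmp13, and none was called. Under 1D11 that fit left Mmp3 at 1.33 and called it (limma adjusted p = 0.0334), control replicate 1 being part of the residual spread of every contrast. Mmp9 had -0.40 ± 0.88 under 13C4, and 0.93 without control replicate 1. Of the tested genes of these role groups, Mmp8 had -0.22 ± 0.22 under 13C4 and 0.40 ± 0.22 under 1D11, and Mmp11, stromelysin 3 of stromal cells, had -0.04 ± 0.17 and -0.13 ± 0.17. Mmp19, outside these groups, had 0.08 ± 0.43 and 0.09 ± 0.43.

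Mmp2, the gelatinase A gene of stromal cells, had log2 intensities of 7.48, 7.03 and 7.21 in control, 7.91, 8.03 and 8.48 in 1D11, 8.00, 8.03 and 8.12 in radiation, and 7.20, 9.05 and 7.24 in 1D11_radiation tumors. Control tumors were below all 1D11 and all radiation tumors, whereas 1D11_radiation replicates 1 and 3 lay within the control range and replicate 2 above every other tumor. The log2 change was 0.81 ± 0.39 with radiation under 13C4 (limma adjusted p = 0.297) and 0.90 ± 0.39 with 1D11 without radiation (limma adjusted p = 0.337). These comparisons share the control tumors. Non-overlap in either direction held for 20.6% of all genes in the first (26.3% of the members) and 19% in the second (18.4%). The interaction was -1.12 ± 0.55 (limma adjusted p = 0.721) and ran from -1.73 to -0.81 as each tumor in turn was left out. Macrophage and monocyte markers had a like pattern: 10 of 11 were higher with radiation under 13C4 (2 called), 10 of 11 were higher with 1D11 without radiation (none called by limma), and 0 of 11 had a positive interaction (median -0.6, none called by limma). Skeletal muscle markers had the same signs: 9 of 9 were higher in each of these comparisons and 0 of 9 had a positive interaction (median -1.99). Their centred mean did not follow Mmp2 in single tumors. It was 1.43 in control replicate 1, above the 1D11 tumors at -0.33, 0.12 and 0.41. For mast cell markers the counts were 4, 6 and 1 of 6. The part of these cell types in the Mmp2 values was not tested.

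The antibody comparisons asked how neutralizing TGF-beta changed these genes. In tumors without radiation, none of the 38 members was called by limma for 1D11 against control, against 0.0157% of all genes, and 6 had an unadjusted p under 0.05 (15.8%, beside 14.1% of all genes). The smallest p-values were those of Mmp14, given above, Mmp23 at -0.35 ± 0.11 (limma adjusted p = 0.219) and Adam4 at -0.27 ± 0.10 (limma adjusted p = 0.262). Mmp23 had 6.70, 6.84 and 6.76 in control and 6.41, 6.46 and 6.39 in 1D11 tumors, which did not overlap. Non-overlap of these groups in either direction held for 18.4% of the members and 19% of all genes.

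In irradiated tumors, none was called by limma for 1D11_radiation against radiation, against 0% of all genes, and 3 had an unadjusted p under 0.05 (7.89%, beside 5.4% of all genes). These were Mmp8 at 0.80 ± 0.22, Adamts4 at 0.46 ± 0.18 and Timp1 at -0.32 ± 0.12, each with a limma adjusted p of 0.84. Groups in this comparison did not overlap for 15.8% of the members and 13.4% of all genes. Mmp8 had 5.69, 5.52 and 5.77 in radiation and 6.57, 6.78 and 6.03 in 1D11_radiation tumors, without overlap, and 5.8, 5.94 and 5.92 in control and 6.57, 5.83 and 5.79 in 1D11 tumors. The tumors with the 3 highest values, 1D11 replicate 1 and 1D11_radiation replicates 1 and 2, also had the 3 highest neutrophil marker scores of the 12, at 0.69, 0.55 and 0.50. The part of neutrophil markers in the Mmp8 values was not tested.

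Over both radiation states, none was called by limma for 1D11, against 0.00785% of all genes, and 5 had an unadjusted p under 0.05 (13.2%, beside 12.5%). Adamts9 had 0.23 ± 0.07 (limma adjusted p = 0.276), Mmp8 had 0.49 ± 0.15 and Mmp14 had 0.14 ± 0.05. For the interaction, none was called by limma, against 0% of all genes, and 3 had an unadjusted p under 0.05 (7.89%, beside 7.48%): Mmp14, Timp1 and Adamts7, the last at 0.55 ± 0.23 (limma adjusted p = 0.627).

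Regulators and substrates of the family outside it were taken from a list of 50 genes, of which 47 were on the array and 38 were tested. With radiation over both antibodies 3 were called higher and 5 lower, or 21.1%, against 7.26% of all genes. The list was chosen with earlier results of these data known, so nothing is read from this share. The 3 higher genes were Tgfa, Btc and Hbegf, which encode ligands of the EGF receptor that are shed from the membrane. Tgfa was at 0.69 ± 0.11 (limma adjusted p = 0.00813), Btc at 1.15 ± 0.23 (limma adjusted p = 0.0162) and Hbegf at 0.71 ± 0.15 (limma adjusted p = 0.0216). Ereg, another such ligand of the list, had 0.64 ± 0.33 and was not called (limma adjusted p = 0.262). Btc had 5.49, 6.93 and 6.49 in control, 6.25, 6.47 and 6.82 in 1D11, 7.90, 7.41 and 7.13 in radiation, and 7.31, 7.98 and 7.63 in 1D11_radiation tumors. All 6 irradiated tumors were above all 6 others for Btc, and likewise for Hbegf, whose lowest irradiated value was 10.25 and highest other value 10.21.

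Tgfa had 6.48, 6.03 and 5.93 in control, 6.36, 6.58 and 6.50 in 1D11, 7.45, 7.42 and 7.12 in radiation, and 6.55, 6.50 and 6.96 in 1D11_radiation tumors. The radiation tumors were above all others, and the 1D11 and 1D11_radiation tumors overlapped. Under 13C4 its log2 change was 1.18 ± 0.16 (limma adjusted p = 0.00888), the 1 call in this list for that contrast, and under 1D11 it was 0.19 ± 0.16. The difference between these changes was -0.99 ± 0.23 (limma adjusted p = 0.38). The Tgfa calls depend on the probe set: with the mean of the gene's probe sets, the change under 13C4 was 0.32 (limma adjusted p = 0.0666). Over both antibodies that mean gave 0.17 (limma adjusted p = 0.0976). Without radiation replicate 2 the limma adjusted p under 13C4 was 0.053. The calls for Hbegf and Pcsk6 over both antibodies were lost without 1D11 replicate 2, radiation replicate 1 or 1D11_radiation replicate 3, with limma adjusted p up to 0.0594 and 0.0612.

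The 5 lower genes had different roles. Tspan14, a tetraspanin that carries ADAM10 to the cell surface, had -0.35 ± 0.06 (limma adjusted p = 0.0093) and was also called in 1D11_radiation against control, at -0.42 ± 0.09 (limma adjusted p = 0.0364), the latter in 4 of 12 fits that left out 1 tumor. Plat, tissue-type plasminogen activator, had -0.59 ± 0.12 (limma adjusted p = 0.0166), and Pcsk6, a proprotein convertase, had -0.39 ± 0.08 (limma adjusted p = 0.0224). Vcan, which encodes the ADAMTS substrate versican, had -0.52 ± 0.11 (limma adjusted p = 0.0191), with 11.64, 11.80 and 11.5 in control, 11.98, 11.49 and 11.59 in 1D11, 11.13, 10.83 and 11.27 in radiation, and 11.11, 11.44 and 11.09 in 1D11_radiation tumors. All 6 irradiated tumors were below all 6 others for Vcan, as they were for Adamts1. Adamtsl5, an ADAMTS-like protein without a protease domain, had -0.43 ± 0.08 (limma adjusted p = 0.0108). With the mean of probe sets Vcan and Adamtsl5 had -0.24 and -0.20 and were not called (limma adjusted p = 0.071 and 0.138), and without 1D11_radiation replicate 3 the limma adjusted p of Vcan was 0.0524.

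**Figure D5:**
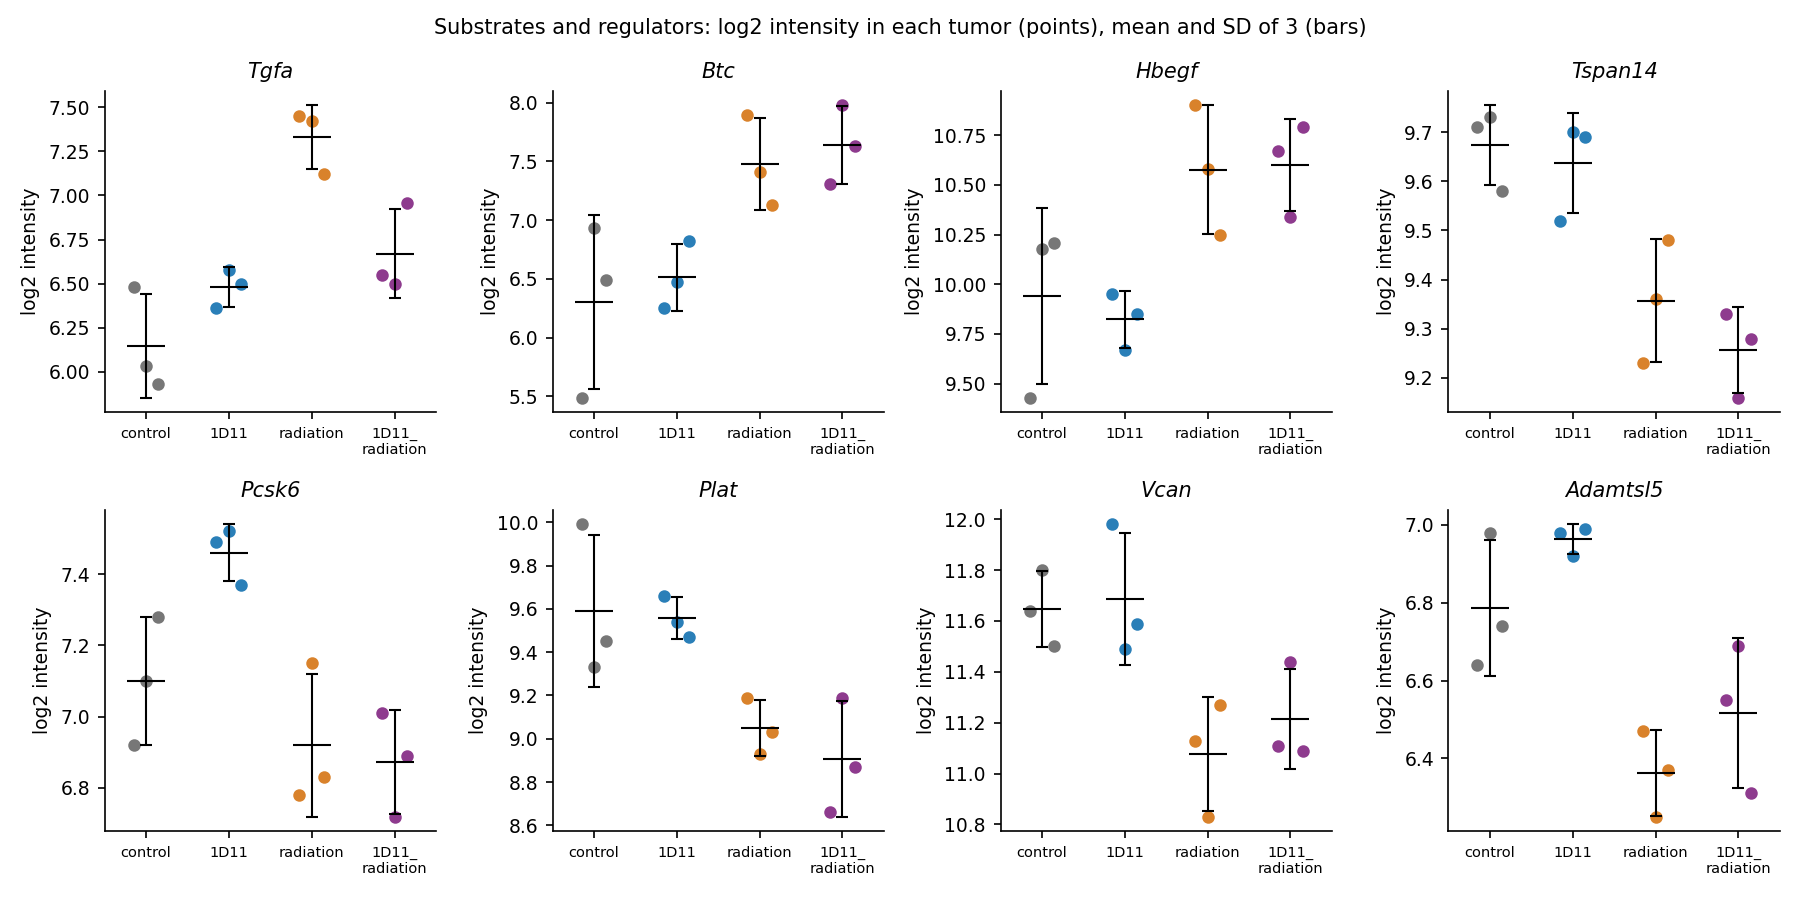
Log2 intensity (vertical axis) of 8 regulators and substrates in each tumor (points) by group (horizontal axis), with the mean and SD of 3 tumors. Btc and Hbegf are higher, and Tspan14, Plat and Vcan lower, in every irradiated tumor than in any other, and Tgfa is highest in the radiation group. The vertical axes do not start at 0.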

How the data were processed

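The authors deposited 1 intensity per probe set and array, linear in scale. How background was corrected and probes were summarised is not given in the sources used here. When 2 arrays were sorted and compared, log2 values were at most 0.129 apart, so the deposited values were already normalized between arrays and were only taken to log2. The probe table is GEO's platform annotation: of 45101 probe sets, 34945 had 1 symbol, 932 several, 9160 none, and 64 were controls. All 65 symbols were current in RefSeq on GRCm38.p6. Genes in the lowest 30 percent of means were not tested.

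Tests were run with limma 3.58.1 in R 4.3.3 (1 mean per group over 12 arrays, two-sided tests, 8 residual and 3.11 prior degrees of freedom). The procedure was tested on simulated data. No array copied another: differences between 2 arrays had an SD of 0.18 or more on the log2 scale. Same-numbered arrays of different groups correlated at -0.31 to 0.27 after group means were removed, 3 of 18 pairs over 0.1, so numbers were not used as pairs. The labels name no batch.

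The members, role lists, markers and partner genes were chosen with earlier results of these data known. Named genes are members called in any contrast, the 3 with the smallest p where none was called, the brightest of each role list, 15 known members, and partners called in any contrast. Alternatives were quantile normalization, other filters, the mean of probe sets, array weights, only the groups compared, a replicate block and leaving out each tumor.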

Additional observations from a re-analysis of the deposited data

How the results depend on the processing

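The number of members called depended on the setting, and the cause was not tested. For radiation against control (2 called), the mean of probe sets gave 1, array weights 5, only the groups compared 0, and leaving out 1 tumor 1 to 3. For 1D11_radiation against 1D11 (1 called), leaving out the lowest 50 percent of genes gave 2, array weights 7 and leaving out 1 tumor 0 to 3. For 1D11_radiation against control (1 called), array weights gave 3, only the groups compared 0 and leaving out 1 tumor 0 to 1. For radiation over both antibodies (4 called), array weights gave 10 and leaving out 1 tumor 2 to 6, the 2 without radiation replicate 1. With the replicate block, radiation against control had 1 call and 1D11_radiation against 1D11 had 0 (Adam8 limma adjusted p = 0.0817). Of alternatives chosen after seeing the data, leaving out both arrays with the most muscle signal gave 4 for 1D11_radiation against 1D11 and 8 for radiation over both antibodies, and a muscle covariate gave 0 and 7. For 1D11 against control, 1D11_radiation against radiation, 1D11 over both radiation states and the interaction, every fit gave 0. Calls over all genes moved too: for radiation against control 304 became 890 with array weights, 6 with only the groups compared, 206 with the replicate block and 20 to 436 without 1 tumor. For 1D11_radiation against 1D11 10 became 1491, 119, 1 and 1 to 227, for 1D11_radiation against control 299 became 923, 1, 85 and 17 to 424, and for radiation over both antibodies 925 became 2176 with array weights and 407 to 1159 without 1 tumor. Without both muscle-rich arrays these 4 counts were 569, 419, 341 and 1410, and with the muscle covariate 561, 4, 311 and 1295. With no filter the third was 178, and with the lowest 50 percent left out or the mean of probe sets the second was 57 or 33. Over all genes the interaction went from 0 to 122 and 1D11 against control from 2 to 13 with array weights, and to 21 each without control replicate 1. Both main effects and the interaction have no fit with only the groups compared. In that fit, Adam8 under 13C4 had a limma adjusted p of 0.0821. The direction for radiation against control reversed with array weights for Mmp10 (-0.22), Mmp12 (-0.14) and Mmp9 (0.26). It reversed without both muscle-rich arrays for Mmp10 (-0.65), Mmp12 (-0.75), Mmp3 (-0.49) and Mmp9 (0.86). Without 1 tumor, log2 changes ran from -0.86 to 0.94 for Mmp10, -0.76 to 1.67 for Mmp12, -0.09 to 1.66 for Mmp13, -0.51 to 1.60 for Mmp3 and -1.08 to 0.93 for Mmp9, negative for the first 4 and positive for Mmp9 without control replicate 1. For radiation over both antibodies, Mmp13 was called without both muscle-rich arrays (1.00, limma adjusted p = 0.0218). It was also called there with the muscle covariate (1.43, limma adjusted p = 0.0381). With 3 arrays a group and no background signal per array, weak and variable genes are the least certain.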
